A study of Mus musculus with 3 samples.

Results

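The miR-30 family was followed in Müller glia (MG), a glial cell type of the mouse retina, on a NanoString nCounter panel. In this assay a tag is ligated to every mature miRNA, and tagged molecules are counted directly, with no amplification. The members are the 5p arms of miR-30a, miR-30b, miR-30c, miR-30d and miR-30e, and all 5 were found among the 602 miRNAs measured. They were chosen by their miRBase identifiers and not by their values, but with earlier results of these data known. Each of the 3 conditions is represented by 1 sample of sorted, tdTomato-positive cells pooled from many retinas of adult mice. The wild type sample held 40 undamaged retinas of Rlbp1-CreER:tdTomato mice, in which the Rlbp1 promoter drives an inducible Cre that switches on the reporter. The light damage (LD) sample held 44 retinas of Rlbp1-CreER:tdTomato mice that had been crossed to the albino Swiss Webster strain carrying the light-sensitive Rpe65 variant, exposed to bright light for 8 h and analysed 7 days later. The Dicer-cKO sample held 26 retinas of Rlbp1-CreER:tdTomato:Dicerf/f mice, 1 month after the same Cre was induced to delete Dicer. All mice received tamoxifen at 75 mg/kg, on 3 consecutive days according to the sample labels and on 4 according to the methods.

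The cells of a pool share 1 measurement, so there was no spread between replicates, and no test or p-value was possible. Intervals are exact 95% intervals that cover counting error only. The LD sample differs from the others in strain and comes from another study than theirs, so that light damage cannot be told apart from strain or study. In pooled sorted cells fewer cells of a type and less RNA per cell cannot be told apart. The identity of the sorted cells was not checked against marker miRNAs, because the table lists identifiers that the sources used here do not pair with names. The miRNAs summed to 783889 normalized counts in wild type, 468576 in LD and 195642 in Dicer-cKO MG. Before the scaling to housekeeping mRNAs these totals were 678722, 230232 and 44258, so the Dicer-cKO values are the least precise.

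A mature miRNA is cut from a hairpin precursor by Dicer and guides the Argonaute complex to mRNAs that pair with its seed, the bases near its 5′ end. Members of a family share the seed and therefore many targets, whereas the rest of the sequence and the hairpin differ. The miR-30 family is broadly expressed in vertebrate tissues and is known to repress, among others, the transcription factor Snai1, the Notch ligand Dll4 and the matrix protein Ccn2. None of these targets was measured here.

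The mature sequences are shown because the members differ so little that the probes have to separate near-identical molecules. RefSeq's table for GRCm38.p6 held 3 of the 5 members. Capitals mark the seed, bases 2 to 8 counted from the 5′ end.
miR-30a: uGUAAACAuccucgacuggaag
miR-30c: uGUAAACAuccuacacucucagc
miR-30e: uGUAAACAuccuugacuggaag
miR-384-5p: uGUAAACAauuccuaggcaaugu
miR-30a and miR-30e are identical at 21 of 22 positions, with the single substitution C13U (miR-30a first, positions counted from the 5′ end). miR-30a and miR-30c share the first 12 bases and differ at 5 of the 22 positions compared. Of 1679 mature mouse miRNA names in the table, 4 carried the seed GUAAACA, namely the 3 members printed and miR-384-5p, whose sequence departs from theirs after the first 8 bases. No row could be named miR-384-5p, so it has no value here. How much the probes for miR-30a and miR-30e detect each other's target was not tested.

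The hairpins lie in neighbouring groups. Mir30a (mature arm at chr1:23272274-23272295, plus strand, GRCm38.p6) neighbours Mir30c-2 (chr1:23291714-23291736, plus strand). Mir30c-1 (chr4:120769584-120769606, minus strand) and Mir30e (chr4:120772660-120772681, minus strand) lie within the span of Nfyc, which encodes a subunit of the transcription factor NF-Y. Mir30b and Mir30d lie together on chromosome 15. The mature miR-30c of Mir30c-1 and that of Mir30c-2 have the same sequence, so the miR-30c value sums the output of both hairpins.

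In the deposited scaling the family sum was lower in both conditions, whereas it exceeded wild type after LD with Gapdh alone as the reference and in Dicer-cKO MG with equal total miRNA counts. The 5 members together had 22322 normalized counts in wild type, 12458 in LD and 5946 in Dicer-cKO MG. The sum was lower by 44.2% after LD (95% interval 42.6 to 45.8) and by 73.4% in Dicer-cKO MG (71.8 to 74.8), and the LD sum was 2.10-fold the Dicer-cKO sum (1.97 to 2.22), but 0.875-fold with equal total miRNA counts (0.825 to 0.929). Of all miRNA counts the family made up 2.85% in wild type (2.81 to 2.89), 2.66% in LD (2.59 to 2.73) and 3.04% in Dicer-cKO MG (2.88 to 3.20). The share moved far less than the sum, as the total of all miRNAs was also lower in both conditions. After LD 1 miRNA alone held 36.9% of all counts, compared with 3.05% in wild type MG, and without it the family share was 2.94% in wild type, 4.21% in LD and 3.22% in Dicer-cKO MG.

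After LD 4 of the 5 members were lower than in wild type MG, where 70.2% of the 104 miRNAs that averaged at least 100 normalized counts were lower. The difference exceeded counting error for 3 of these 4, and over 9 other scalings between 0 and 5 members were lower. In Dicer-cKO MG all 5 were lower, each by more than counting error, where 76.0% of the 104 were lower, and over the other scalings between 2 and 5 were. At least a 2-fold decline was found for 1 member after LD (39.4% of the 104 miRNAs) and for 3 members in Dicer-cKO MG (60.6%). All 5 members passed the minimum mean. The median log2 change of the members was -0.91 after LD and -1.52 in Dicer-cKO MG, beside -0.70 and -1.36 over the 104 miRNAs. Both comparisons use the same wild type sample.

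**Figure D1:**
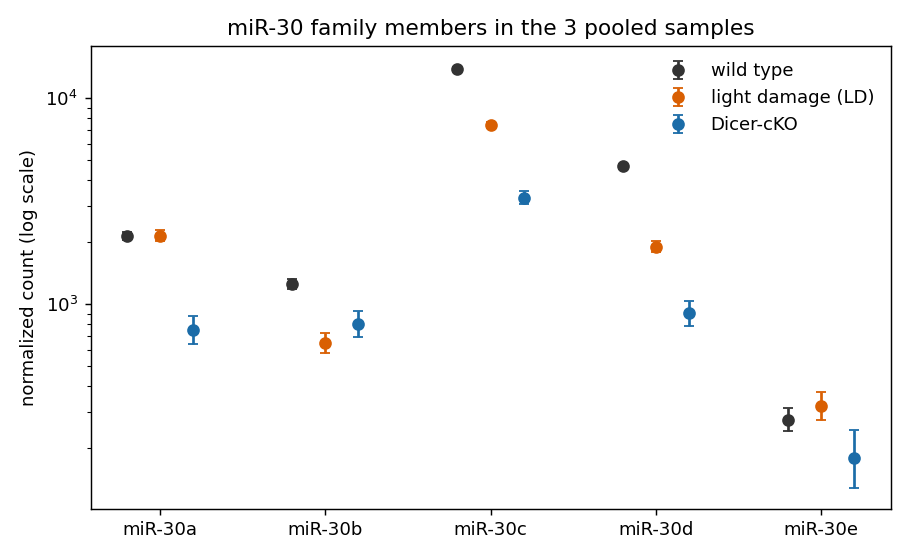
Normalized counts (log axis) of the 5 miR-30 members in the wild type, LD and Dicer-cKO samples, 1 pooled sample each, with exact Poisson 95% bars for counting error. miR-30a has 2158 counts in wild type MG and 2154 after LD, whereas miR-30c and miR-30d step down from wild type to LD to Dicer-cKO.

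miR-30c and miR-30d had the lowest ratios to wild type among the members in Dicer-cKO MG. miR-30c (MIMAT0000514), the product of both Mir30c hairpins, had 13955 normalized counts in wild type, 7419 in LD and 3296 in Dicer-cKO MG. Its decline was 46.8% after LD (44.8 to 48.8) and 76.4% in Dicer-cKO MG (74.6 to 78.1). Over the other scalings its ratio to wild type ranged from 0.302 to 1.37 after LD, and it stayed below 1 in Dicer-cKO MG.

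miR-30d (MIMAT0000515), whose hairpin neighbours that of miR-30b, had 4676 counts in wild type, 1910 in LD and 909 in Dicer-cKO MG. The decline was 59.2% after LD (56.1 to 62.0) and 80.6% in Dicer-cKO MG (77.6 to 83.2), and over the other scalings the LD ratio ranged from 0.232 to 1.05. It was the largest decline in the family in either comparison, and the intervals of miR-30d did not overlap those of the other members, except that of miR-30c in Dicer-cKO MG. Among the members, miR-30c and miR-30d had the most similar pair of changes, 0.47 apart on the log2 scale (Euclidean distance of the LD and Dicer-cKO changes, which share the wild type sample).

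miR-30a and miR-30e, which differ by 1 base, did not decline beyond counting error after LD in the deposited scaling. miR-30a (MIMAT0000128) had 2158 counts in wild type, 2154 in LD and 754 in Dicer-cKO MG. The LD level was 0.998-fold that of wild type (0.925 to 1.08), and the Dicer-cKO level was lower by 65.1% (59.1 to 70.3). The wild type and LD values lie within counting error of each other and the Dicer-cKO value is far below both. Over the other scalings the LD ratio ranged from 0.566 to 2.56 and the Dicer-cKO ratio from 0.0913 to 1.44.

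miR-30e (MIMAT0000248) had few counts, with 276 in wild type, 323 in LD and 180 in Dicer-cKO MG. Before scaling the Dicer-cKO value corresponds to 40.7 counts, and its ratio to wild type, 0.652, had a wide interval (0.456 to 0.912). After LD the ratio was 1.17 (0.951 to 1.44). A difference of miR-30e from wild type after LD was thus not detectable at this depth in the deposited scaling, and over the other scalings the ratio ranged from 0.664 to 3.01 after LD and from 0.170 to 2.68 in Dicer-cKO MG. The pair of changes of miR-30a and miR-30e lay 0.93 apart on the log2 scale, the second smallest distance of the 10 pairs of members.

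miR-30b (MIMAT0000130) was the member with a higher count in Dicer-cKO MG than after LD. It had 1257 counts in wild type, 652 in LD and 807 in Dicer-cKO MG. The decline was 48.1% after LD (41.2 to 54.3) and 35.8% in Dicer-cKO MG (24.8 to 45.4). The LD level was 0.808-fold the Dicer-cKO level (0.672 to 0.974), so the upper bound came close to 1, and over the other scalings this ratio ranged from 0.337 to 1.75. The ratio to wild type ranged from 0.294 to 1.33 after LD and from 0.168 to 2.64 in Dicer-cKO MG.

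**Figure D2:**
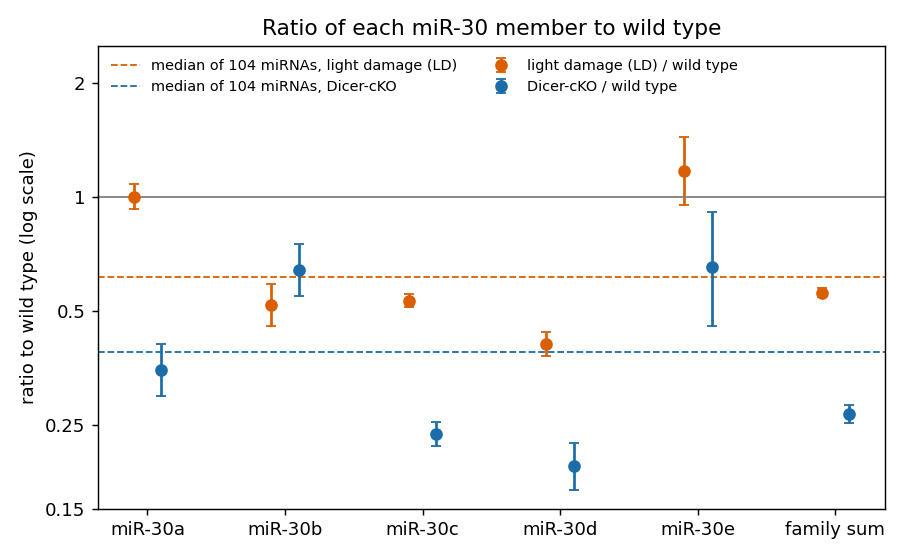
Ratio to wild type (log axis) of each miR-30 member and of their sum in LD and in Dicer-cKO MG, with exact 95% intervals for counting error, and dashed lines at the median over 104 miRNAs. After LD miR-30a (0.998) and miR-30e (1.17) lie above the median and the other 3 members below it, and in Dicer-cKO MG miR-30b (0.642) and miR-30e (0.652) lie above it. Ratios are in the deposited scaling, and other scalings shift all of them together.

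Between LD and Dicer-cKO MG 4 of the 5 members were higher after LD, where 72.1% of the 104 miRNAs were higher, and 3 were at least 2-fold higher (41.3% of the 104). Over the other scalings between 1 and 5 members were higher. Relative to Dicer-cKO, the LD level was 2.86-fold for miR-30a (2.43 to 3.38), 2.25 for miR-30c (2.08 to 2.44), 2.10 for miR-30d (1.81 to 2.46) and 1.79 for miR-30e (1.26 to 2.60). The intervals of these 4 members all overlapped each other, whereas that of miR-30b lay below all of them.

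The make-up of the family does not depend on how the samples were scaled to each other, because a scaling multiplies all members of a sample alike. Probes differ in efficiency, so the shares describe counts and not molar amounts, and what can be compared is the share of 1 member between samples. miR-30c made up 62.5% of the family sum in wild type (61.8 to 63.2), 59.6% in LD (58.3 to 60.8) and 55.4% in Dicer-cKO MG (52.7 to 58.1). The share of miR-30d was 20.9% in wild type (20.4 to 21.5), 15.3% in LD (14.4 to 16.3) and 15.3% in Dicer-cKO MG (13.4 to 17.3). Both shares were lower in the LD and Dicer-cKO samples than in the wild type sample, by more than counting error.

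The shares of the other members were higher instead, except that of miR-30b after LD. miR-30a made up 9.67% of the family sum in wild type (9.25 to 10.1), 17.3% in LD (16.4 to 18.3) and 12.7% in Dicer-cKO MG (10.9 to 14.6), the highest share being that after LD. miR-30b made up 5.63% in wild type (5.31 to 5.97), 5.23% in LD (4.69 to 5.82) and 13.6% in Dicer-cKO MG (11.8 to 15.5). Its share after LD lay within counting error of wild type and stood apart in Dicer-cKO MG. miR-30e made up 1.24% in wild type (1.09 to 1.40), 2.59% in LD (2.21 to 3.02) and 3.03% in Dicer-cKO MG (2.18 to 4.09), and the latter 2 intervals overlapped.

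**Figure D3:**
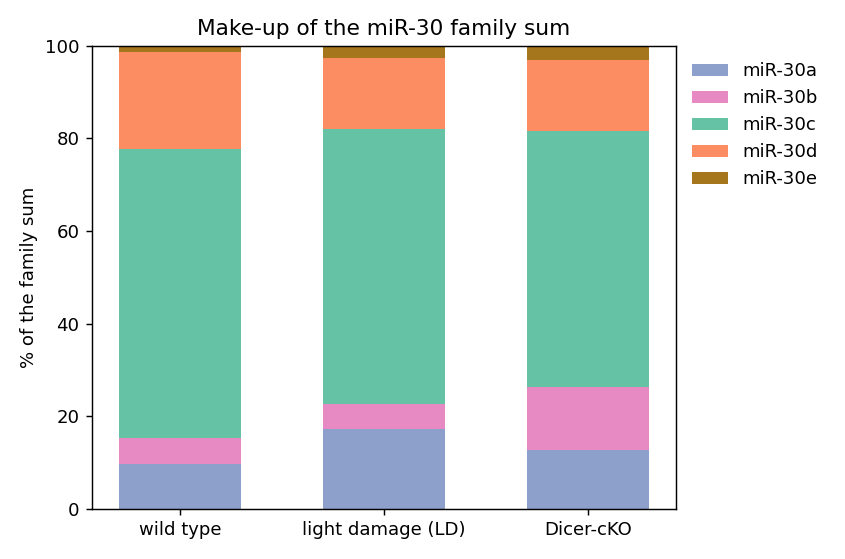
Share of each miR-30 member in the family sum (% of the summed normalized counts) in the 3 pooled samples. The miR-30a segment is widest after LD at 17.3% and the miR-30b segment is widest in Dicer-cKO MG at 13.6%.

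Setting each member against the summed other 4 restates the shares above from the same counts and adds no further support. No intervals were computed for these ratios. Relative to the summed other 4 members, the LD to wild type ratio of miR-30a was 1.95-fold and that of miR-30e 2.13-fold, compared with 0.925 for miR-30b, 0.883 for miR-30c and 0.683 for miR-30d. For Dicer-cKO against wild type, miR-30b reached 2.63-fold, miR-30e 2.49-fold and miR-30a 1.36-fold, compared with 0.746 for miR-30c and 0.681 for miR-30d. These differences between members remain under any scaling by 1 factor per sample. The subtracted background is not such a factor. Its size is unknown, and a subtracted amount weighs most on low counts. Before scaling, the Dicer-cKO counts ran from 40.7 for miR-30e to 746 for miR-30c. Whether the background contributed to the differences between members was not tested.

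The ratio of miR-30b to miR-30d differed between the samples. Of the counts of miR-30b and miR-30d, which lie together on chromosome 15, miR-30b held 21.2% in wild type (20.1 to 22.3), 25.4% in LD (23.1 to 28.0) and 47.0% in Dicer-cKO MG (42.0 to 52.1). The 3 intervals did not overlap. The pairs with miR-30c do not measure neighbouring hairpins, because its value sums Mir30c-1 and Mir30c-2. Of the counts of miR-30a and miR-30c, miR-30a held 13.4% in wild type (12.8 to 14.0), 22.5% in LD (21.3 to 23.7) and 18.6% in Dicer-cKO MG (16.1 to 21.3). Of the counts of miR-30e and miR-30c, miR-30e held 1.94% in wild type (1.70 to 2.20), 4.17% in LD (3.56 to 4.86) and 5.18% in Dicer-cKO MG (3.74 to 6.97). In both of the latter pairs the wild type share was below the shares in the other samples. For miR-30e and miR-30a, which differ by 1 base, miR-30e held 11.3% in wild type (10.02 to 12.77), 13.0% in LD (11.2 to 15.1) and 19.3% in Dicer-cKO MG (14.2 to 25.2), and the LD interval overlapped both of the others.

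The share of miR-30a in other pairs of members was compared between samples as well. Of the counts of miR-30a and miR-30d, miR-30a held 31.6% in wild type (30.4 to 32.8), 53.0% in LD (50.8 to 55.2) and 45.3% in Dicer-cKO MG (40.2 to 50.5). The wild type share was the lowest, and the bounds of the LD and Dicer-cKO shares nearly met. Of the counts of miR-30a and miR-30b, miR-30a held 63.2% in wild type (61.4 to 64.9), 76.8% in LD (74.4 to 79.0) and 48.3% in Dicer-cKO MG (43.0 to 53.7), and these 3 intervals did not overlap.

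The members were then placed among the 104 miRNAs by their change. After LD the log2 change was below that of miR-30d for 32 of the 104, and below that of miR-30b and miR-30c for 43 and 46. It was below that of miR-30a for 72 and below that of miR-30e for 75. In Dicer-cKO MG the corresponding numbers were 19 for miR-30d, 28 for miR-30c, 48 for miR-30a, 70 for miR-30b and 71 for miR-30e.

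**Figure D4:**
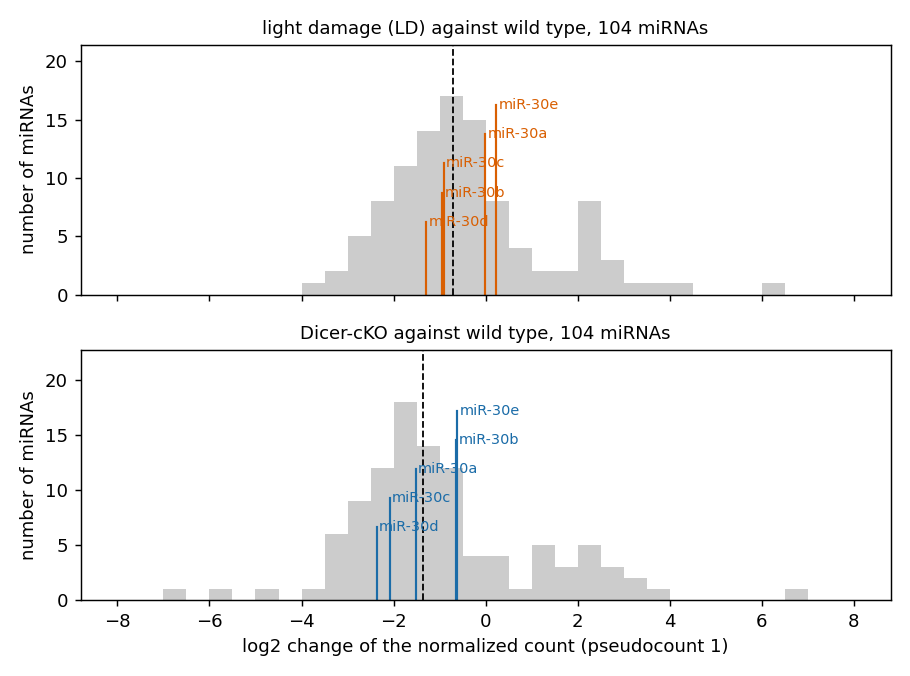
Number of miRNAs by log2 change of the normalized count (pseudocount 1) for LD and for Dicer-cKO against wild type, over 104 miRNAs, with the miR-30 members as coloured lines (their heights only separate the labels) and the median of all as a dashed line. After LD the members span -1.29 to 0.23 around the median of -0.70, and in Dicer-cKO MG they span -2.36 to -0.61 around -1.36.

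Outside the family, the miRNA whose pair of changes was most like that of the family sum was MIMAT0000516, at a distance of 0.08 on the log2 scale among 34 other miRNAs that averaged at least 1000 counts, over 3 samples. It had 2139 counts in wild type, 1259 in LD and 577 in Dicer-cKO MG. The next was MIMAT0000383 at 0.16, with 13294, 6634 and 3557 counts. The table does not pair these identifiers with names.

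The size of the decline, and under some references its direction in both conditions, depended on the reference to which the samples were scaled. The authors scaled to 4 housekeeping mRNAs, whose changes differed. Gapdh, a glycolytic enzyme, had 798.5 normalized counts in wild type, 379.6 in LD and 621.6 in Dicer-cKO MG, whereas Rpl19, a ribosomal protein, had 741.9, 1269 and 701.2. With Gapdh alone as the reference the family sum after LD was 1.17-fold that of wild type (1.14 to 1.21), and with Rpl19 alone it was 0.326-fold (0.317 to 0.336). With the total miRNA count made equal, the sum was 0.934-fold after LD (0.907 to 0.961) and 1.07-fold in Dicer-cKO MG (1.01 to 1.13). In Dicer-cKO MG the sum stayed below wild type with each of the 4 housekeeping mRNAs as the only reference, between 0.206-fold with B2m and 0.342-fold with Gapdh. In that comparison miR-30c and miR-30d had lower counts than in wild type under all 9 other scalings tried, at most 0.972-fold for miR-30c (0.902 to 1.05, which includes 1) and 0.800-fold for miR-30d (0.692 to 0.921). miR-30a was higher after LD than in Dicer-cKO MG under all 9, at the lowest 1.19-fold.

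**Figure D5:**
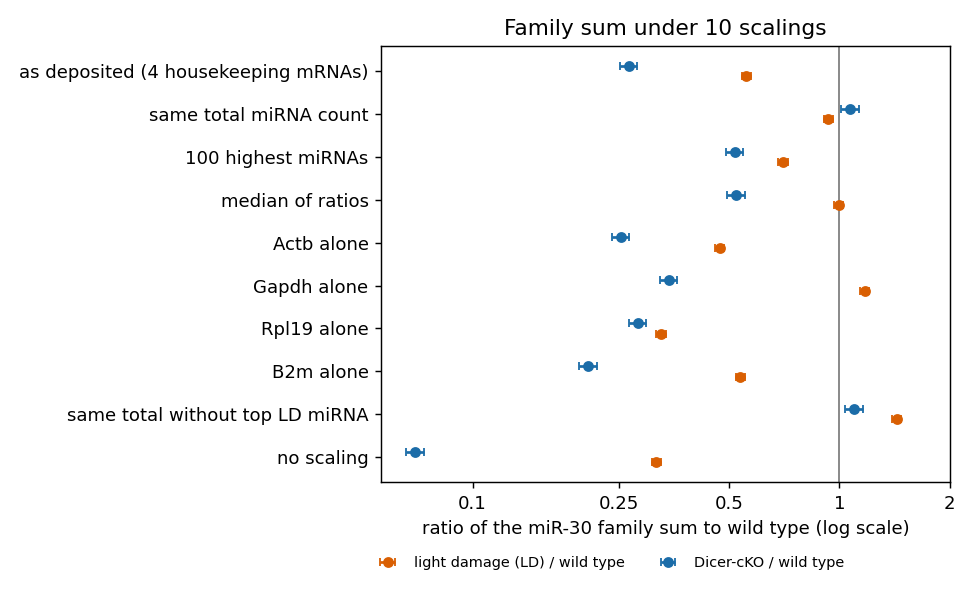
Ratio of the miR-30 family sum to wild type (log axis) in LD and in Dicer-cKO MG under the deposited scaling and 9 others, with exact 95% intervals for counting error. The LD ratio lies between 0.317 without scaling and 1.43 with the same total without the most abundant LD miRNA, and the Dicer-cKO ratio lies between 0.0696 and 1.10 under the same 2 scalings.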

How the data were processed

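The authors counted molecules on the NanoString nCounter platform and deposited 1 table of 626 rows (602 miRNAs, 4 housekeeping mRNAs, 14 ERCC and 6 nmiR rows) for 3 samples. Its values are a signal that the authors obtained with nSolver 4.0, namely counts corrected with 8 negative and 6 positive controls and scaled to Actb, Gapdh, Rpl19 and B2m. No aligner or genome is involved. The wild type and Dicer-cKO raw data come from an earlier study and were normalized again together with LD.

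The sample factors were recovered from the steps in the deposited values of the housekeeping and nmiR rows (1.15 in wild type, 2.04 after LD and 4.42 in Dicer-cKO). Dividing by them gave counts before scaling. These entered exact Clopper-Pearson intervals of ratios and shares and exact Poisson intervals of levels, all at 95%. How much background was subtracted is unknown, and the intervals leave it out. The procedure was also run on simulated data, and no result of that run is given here. Ratios have no pseudocount, and log2 changes have a pseudocount of 1. Background values use the 104 miRNAs that averaged at least 100, and a change counts as large from 2-fold.

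Members and lists were chosen with earlier results of these data known. Named miRNAs were the members, other arms of miR-30 hairpins or miRNAs of the same seed, and the 3 other miRNAs nearest to the family sum, of which 2 identifiers are printed. No source used here pairs identifiers other than those of the members with names. The planned values for passenger arms, the let-7, miR-181 and miR-29 families and the cell type markers are therefore not given. The alternatives were 9 other scalings, a pseudocount of 10, other filters and, chosen after seeing the data, 2 other summaries of the family. Sequences came from RefSeq (GRCm38.p6). The software was scipy 1.17.1, pandas 2.3.3, numpy 2.4.6 and matplotlib 3.10.9 under Python 3.11.15.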

Additional observations from a re-analysis of the deposited data

Results flagged for a closer look

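In the deposited scaling miR-30e had a ratio to wild type above 1 after LD, 1.17, and below 1 in Dicer-cKO MG, 0.652. The interval after LD (0.951 to 1.44) includes 1, so no direction can be given there, and the difference was not tested. The ratios also lay on either side of 1 with Gapdh alone (2.46 and 0.838) and with B2m alone (1.13 and 0.504). The intervals of 0.838 (0.586 to 1.17) and of 1.13 (0.915 to 1.38) include 1, so no direction can be given for these values. Under the other scalings tried the LD and Dicer-cKO ratios lay on the same side. Examples are 1.96 and 2.61 with the same total miRNA count and 0.684 and 0.690 with Rpl19 alone. Before scaling its counts were 239.0 in wild type, 158.7 in LD and 40.7 in Dicer-cKO MG.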

How the results depend on the processing

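No paired analysis was possible because the conditions have a single sample each. The scalings multiply all miRNAs of a sample alike, so the make-up of the family and the ratios between its members cannot change with them. The choice of reference moved the family sum and under some references turned its direction, and the cause was not tested. Of 150 member values under alternatives, 41 stayed within the interval of the deposited scaling, and 87 left it with the direction kept or with no direction called before. The other 22 lay on the other side of 1 from the direction called as deposited, several of them with an interval that includes 1. The miRNA left out of the total is the most abundant of the LD sample. The summaries without miR-30c and by the geometric mean were chosen after seeing the data.

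For LD over wild type (0.558 as deposited), the ratio of the family sum was 0.934 with the same total miRNA count, 0.702 with the 100 highest miRNAs, 0.997 with the median of ratios, 0.472 with Actb alone, 0.326 with Rpl19 alone, 0.537 with B2m alone and 0.317 without scaling. It was above 1 with Gapdh alone (1.17) and with the same total without the most abundant miRNA (1.43). Without miR-30c it was 0.602, and the geometric mean of the members gave 0.667. For Dicer-cKO over wild type (0.266), it was 0.518 with the 100 highest miRNAs, 0.522 with the median of ratios, 0.253 with Actb alone, 0.342 with Gapdh alone, 0.282 with Rpl19 alone, 0.206 with B2m alone and 0.0696 without scaling, and above 1 with the same total (1.07) and with the same total without the most abundant LD miRNA (1.10). Without miR-30c it was 0.317, and the geometric mean gave 0.368. For LD over Dicer-cKO (2.10), it was 1.36 with the 100 highest miRNAs, 1.91 with the median of ratios, 1.86 with Actb alone, 3.43 with Gapdh alone, 1.16 with Rpl19 alone, 2.60 with B2m alone, 1.31 with the total without the most abundant LD miRNA and 4.55 without scaling, and below 1 with the same total (0.875). Without miR-30c it was 1.90, and the geometric mean gave 1.81.

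After LD 4 members were lower than in wild type MG as deposited and with B2m alone, 3 with the same total, with the 100 highest miRNAs and with the median of ratios, 5 with Actb alone, with Rpl19 alone and without scaling, 1 with Gapdh alone and 0 with the total without the most abundant LD miRNA. In Dicer-cKO MG 5 were lower as deposited, 2 with the same total, 3 with the 100 highest miRNAs, 3 with the median of ratios and 2 with the total without the most abundant LD miRNA.

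Listed here are the member ratios on the other side of 1 from a direction called in the deposited scaling. For LD over wild type no direction had been called for miR-30a and miR-30e, so these are given apart. With the same total they were 1.67 (1.55 to 1.80) and 1.96 (1.59 to 2.40). With Rpl19 alone they were 0.584 (0.541 to 0.630) and 0.684 (0.556 to 0.840). The listed ratios for LD over wild type were 1.09 for miR-30b and 1.12 for miR-30c with Gapdh alone. With the total without the most abundant LD miRNA they were 1.33 for miR-30b, 1.37 for miR-30c and 1.05 for miR-30d. For Dicer-cKO over wild type the listed ratios were 1.40 for miR-30a, 2.57 for miR-30b and 2.61 for miR-30e with the same total. Without the most abundant LD miRNA they were 1.44, 2.64 and 2.68. In that comparison miR-30b and miR-30e reached 1.25 and 1.27 with the 100 highest miRNAs and 1.26 and 1.28 with the median of ratios. For LD over Dicer-cKO they were 0.940 for miR-30c, 0.877 for miR-30d and 0.749 for miR-30e with the same total, 0.992 for miR-30e with Rpl19 alone, and for miR-30b 1.32 with Gapdh alone, 1.004 with B2m alone and 1.75 without scaling. The interval included 1, so that no direction can be given, for 1.09 and 1.05 in the first comparison, for 1.27 and 1.28 in the second, and for the values of miR-30c, miR-30d and miR-30e and 1.004 in the third.

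Among the scalings the median log2 change of the 104 miRNAs shifted by between -0.81 (without scaling) and 1.36 (total without the most abundant LD miRNA) for LD over wild type, and by between -1.92 and 2.04 under the same scalings for Dicer-cKO. With no filter on low values this median was 0.50 for LD over wild type, 1.23 for Dicer-cKO over wild type and -0.74 for LD over Dicer-cKO. Without the filter, 260 of the 602 miRNAs are at the lowest value of the sample in wild type, 356 in LD and 359 in Dicer-cKO MG, and this value is 1, 2 and 4, respectively. The cause of the turn was not tested. Depth limits miR-30e most, with 40.7 counts before scaling in Dicer-cKO MG.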
